A study of Mus musculus with 6 samples.

Results

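A set of 202 protein-coding genes was high in a single heart library, Nat10 flox/flox replicate 1, and much lower in the other 5 libraries. The members were chosen on that pattern. Each had at least 2 FPKM (fragments per kilobase of a gene, scaled for the size of the library) in Nat10 flox/flox replicate 1, and at least 10 times the highest value of the other 5 libraries there. Genes whose names begin with Kcn, Scn or Tub were left out of the set. The expression table had 46452 rows, of which 22186 were protein-coding, and 9742 of these reached 2 FPKM in that library. The 202 members were 2.07% of the 9742. This share was fixed by the rule and nothing is read from it.

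The libraries were made from hearts of 10-day-old mice, 3 of the genotype Nat10 flox/flox and 3 labelled Nat10-CKO, with 3 independent biological replicates per group. Nat10 flox/flox names a Nat10 gene flanked by loxP sites, and Nat10-CKO names its conditional knockout, for which the Cre driver and the deleted exons are not stated. Nat10 encodes an RNA acetyltransferase. Whether further alleles are shared by the groups, the strain, the sex and any pooling of animals are not stated either. The libraries are called flox 1 to flox 3 and CKO 1 to CKO 3 below. No test between the groups was made, since the members were defined on 1 library.

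Sensory ganglia, such as the dorsal root ganglia beside the spinal cord, hold the cell bodies of the neurons that report touch, temperature, pain and itch. Each cell body is wrapped by satellite glia, and its axon runs in a nerve ensheathed by Schwann cells. Autonomic ganglia hold a different kind of neuron, which drives organs with noradrenaline or acetylcholine, and small parasympathetic ganglia lie on the atria of the heart. Both kinds of ganglion neuron contain peripherin and neurofilaments.

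Reads in genes numbered 38051266 in flox 1, 31155521 and 36672827 in flox 2 and 3, and 35243886, 35528342 and 35854754 in CKO 1 to 3. Nat10 itself was at 3.75, 4.18 and 4.71 FPKM in flox 1 to 3 and at 8.28, 8.66 and 10.2 FPKM in CKO 1 to 3, higher in the libraries labelled as its knockout. These levels cover the whole gene, so reads from the deleted exons cannot be told apart. Heart muscle genes were abundant in every library: Myh6, the alpha myosin heavy chain, ranged from 1958 to 5767 FPKM and was at 3397 FPKM in flox 1. The 10 heart muscle genes listed included 0 members, and 0 of them had their highest value in flox 1.

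Since the rule chose genes that are high in flox 1, the following sums describe the set and do not show that this library stands apart. The members took 0.765% of its reads in genes (290928 reads), and between 0.00934% and 0.0125% in each of the other 5 libraries. Their summed level was 2577 FPKM in flox 1, 37.1 and 38.6 FPKM in flox 2 and 3, and 33.0, 33.7 and 31.3 FPKM in CKO 1 to 3. The mean of the flox group for that sum was 884 FPKM with flox 1 and 37.9 FPKM without it. Among the other 5 libraries, the highest value of a member lay in flox 2 for 40 members, in flox 3 for 42, and in CKO 1, 2 and 3 for 33, 27 and 31, with 29 members at 0 reads in all of them. In these bulk libraries more cells of a type and more RNA per cell cannot be told apart.

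**Figure D1:**
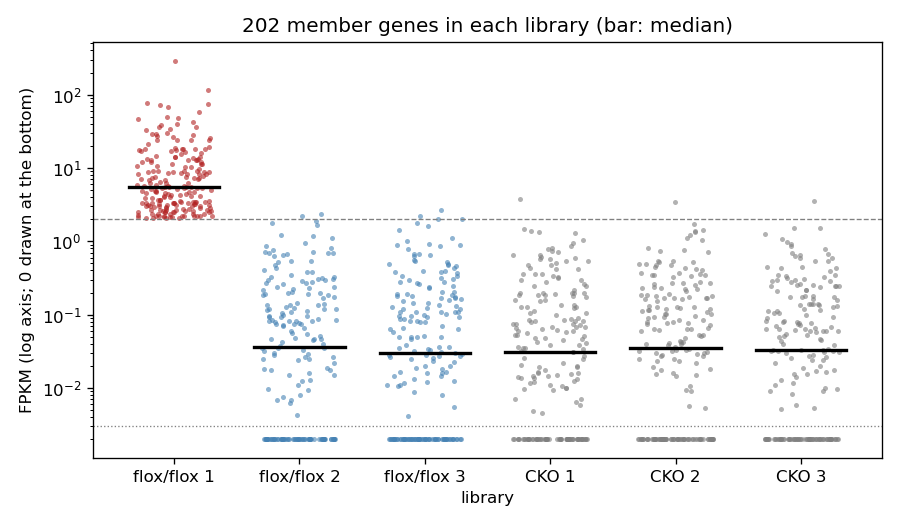
FPKM of the 202 member genes (points, log axis) in each of the 6 libraries, with the median as a bar, the 2 FPKM floor as a dashed line and values of 0 drawn at the bottom. The median is 5.45 FPKM in flox 1 and between 0.0298 and 0.0363 FPKM in the other 5 libraries.

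Applied to each other library in turn, the same thresholds returned 1 gene in flox 2 (Klra7), 0 in flox 3, 4 in CKO 1 (Chil3, Cd300lf, Sirpb1c and Arg1), and 0 in CKO 2 and CKO 3. Klra7 is a receptor of natural killer cells, and Chil3 and Arg1 are genes of myeloid cells. None of these 5 genes can be a member, since each was at least 10 times higher in another library than in flox 1. These counts use the values that chose the set and do not show that flox 1 stands apart. The member levels in flox 1 rested on 109 to 11153 reads, with a median of 841.5. They reached 10 FPKM or more for 64 members and were under 5 FPKM for 93. The 10 highest members made up 34.7% of the summed level.

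The margin over the other libraries also varied. The ratio was 100 or more for 56 members with a read elsewhere and under 20 for 44. For the 29 members with 0 reads elsewhere, the lower bound against a floor of 3 reads was at least 100-fold for 17 and less for 12. In all other 5 libraries 100 members stayed under 0.1 FPKM, while 16 exceeded 1 FPKM in at least 1 of them. Just inside the ratio threshold were Kif5a (13.9 against at most 1.38 FPKM), Fxyd7 (38.2 against 3.76) and L1cam (8.44 against 0.810). Just outside it were Sprn (2.25 against 0.232 FPKM) and Rtn1 (10.8 against 1.14), which like many members are genes of neurons. Near the floor, Sh3gl2, Bmerb1 and Tmeff2 were inside at 2.06, 2.07 and 2.07 FPKM, and Lypd8, Trappc3l and Dusp15 outside at 2.00, 1.99 and 1.96 FPKM.

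**Figure D2:**
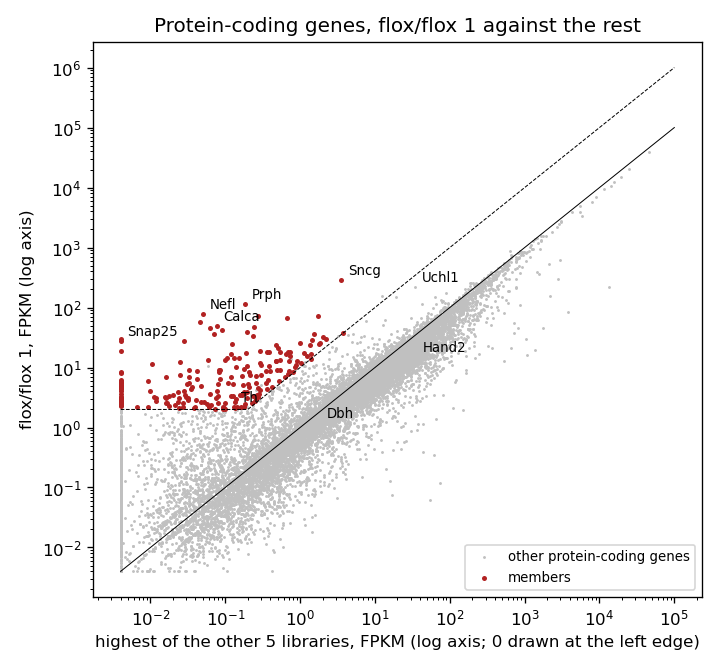
FPKM in flox 1 (vertical, log axis) against the highest of the other 5 libraries (horizontal, log axis, values of 0 at the left edge) for protein-coding genes with a read in flox 1. Members are red, the solid line marks equal values and the dashed line the thresholds of 2 FPKM and 10 times. Prph, Nefl, Calca and Snap25 lie far above the dashed line, while the noradrenaline enzyme gene Dbh and the transcription factor gene Hand2 lie near equality.

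The 2 genes that mark the set were both members. Prph (peripherin, an intermediate filament of peripheral neurons; gene ID 19132, chr15:98951452-98956859 on the plus strand, GRCm39) was at 117 FPKM in flox 1, 0.0538 and 0.156 FPKM in flox 2 and 3, and 0.185, 0.110 and 0.175 FPKM in CKO 1 to 3. The 117 FPKM rested on 11153 reads (95% Poisson interval 114 to 119 FPKM, which covers counting error only). Nefl, the light neurofilament chain (gene ID 18039, chr14:68321312-68326544 on the plus strand), was at 76.7 FPKM in flox 1 and between 0 and 0.0511 FPKM in the other 5. For both genes flox 1 was the only library above 1 FPKM. The ratio of flox 1 to the highest other library was 631 for Prph (95% counting interval 388 to 1104) and 1501 for Nefl (689 to 4091).

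Promoters are shown for 5 members whose products stand for the main groups below: the filament Prph, the peptide genes Calca and Tac1, the granule protein Scg2 and the enzyme Th. These members were also picked because their windows hold the marked letters, so the capitals are not typical of the set. The windows hold the 250 bases before the start of each gene in the RefSeq promoter table (GRCm38.p6, a different build from the expression table). Capitals mark a TATAAA box in Prph, the letters TGACGCAA (in Tac1 on the opposite strand) in Calca and Tac1, and the cyclic AMP response element TGACGTCA in Scg2 and Th. The windows are chr15:99054924-99055173 on the plus strand for Prph, chr7:114636358-114636607 on the minus strand for Calca, chr6:7554811-7555060 on the plus strand for Tac1, chr1:79440027-79440276 on the minus strand for Scg2 and chr7:142899996-142900245 on the minus strand for Th.
Prph: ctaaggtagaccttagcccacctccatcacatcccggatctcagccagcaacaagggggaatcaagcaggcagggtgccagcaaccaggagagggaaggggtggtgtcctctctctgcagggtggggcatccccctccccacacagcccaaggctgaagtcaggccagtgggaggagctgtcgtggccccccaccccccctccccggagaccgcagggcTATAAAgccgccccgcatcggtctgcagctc
Calca: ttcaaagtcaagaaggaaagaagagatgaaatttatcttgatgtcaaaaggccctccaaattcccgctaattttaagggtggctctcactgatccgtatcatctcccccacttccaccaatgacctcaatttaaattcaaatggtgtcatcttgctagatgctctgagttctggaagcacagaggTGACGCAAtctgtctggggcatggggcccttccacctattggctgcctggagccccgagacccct
Tac1: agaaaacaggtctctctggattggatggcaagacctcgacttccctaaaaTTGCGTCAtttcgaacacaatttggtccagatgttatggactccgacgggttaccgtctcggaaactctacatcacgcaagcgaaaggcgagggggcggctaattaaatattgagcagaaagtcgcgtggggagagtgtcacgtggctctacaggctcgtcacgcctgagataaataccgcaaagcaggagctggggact
Scg2: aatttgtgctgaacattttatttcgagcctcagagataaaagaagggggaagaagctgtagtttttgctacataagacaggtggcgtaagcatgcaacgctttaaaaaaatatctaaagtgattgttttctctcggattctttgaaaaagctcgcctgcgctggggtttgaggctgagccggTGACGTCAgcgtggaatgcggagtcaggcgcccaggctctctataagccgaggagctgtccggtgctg
Th: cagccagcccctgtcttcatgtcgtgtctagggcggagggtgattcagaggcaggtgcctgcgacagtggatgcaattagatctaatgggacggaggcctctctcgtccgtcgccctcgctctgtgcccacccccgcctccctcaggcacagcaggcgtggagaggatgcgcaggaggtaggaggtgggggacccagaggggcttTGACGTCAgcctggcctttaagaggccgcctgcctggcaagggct

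The table held 141 of the 202 members (69.8%), under the 80% needed, so a check of motifs over the set is void and the shares below describe the matched members only. The counts are of genes, each counted if any of its windows held the motif. Of 11 motifs searched on both strands, TGACGTCA was found for 9 of the 141 genes (6.38%, against 2.20% of all 17414 genes). These were Cartpt, Chgb, Isl2, Kif5c, Scg2, Sh3gl2, Syn1, Th and Tmem59l. TGACGCAA was found for 3 (2.13% against 0.666%), namely Calca, Slc17a6 and Tac1. The E box CAGCTG was found in 32 genes (22.7% against 13.8%), the GC box GGGCGG in 83 (58.9% against 45.9%) and TATAAA in 13 (9.22% against 13.7%). CCAAT was in 51 (36.2% against 39.4%), TGACTCA in 6 (4.26% against 4.77%), TAATTA in 7 (4.96% against 5.12%) and AATTAAT, which can overlap TAATTA, in 3 (2.13% against 2.41%). The motif of NRF1 was in 0 (1.21% of all genes), and the RE1 motif of the repressor REST in 0 (0.0689% of all genes). No test was run, and a match is a string of letters, not a site in use.

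The highest values of the set came from genes of the neuronal cytoskeleton and from a synuclein. Sncg, gamma-synuclein of peripheral neurons, was at 285 FPKM in flox 1, 2.33 and 2.65 FPKM in flox 2 and 3, and 1.33, 3.46 and 3.54 FPKM in CKO 1 to 3 (ratio 80.5, 95% counting interval 65.2 to 100). It was the highest member, and unlike Nefl it was measurable in every library. Of 18 genes of the neuronal cytoskeleton and growth 7 were members and 17 had their highest value in flox 1. So had 1576 of the 9742 protein-coding genes of at least 2 FPKM there, and 3872 of 22048 without that floor. Such counts rest on the values that chose the members and are given as a description, here and for the lists below. Stmn2 and Stmn3, regulators of microtubules in growing axons, were at 73.5 and 72.3 FPKM. The medium and heavy neurofilament chains Nefm and Nefh were at 36.7 and 27.6 FPKM, and Gap43, a growth cone protein, at 11.2 FPKM. Uchl1, a ubiquitin hydrolase of neurons, missed the ratio: it was at 219 FPKM in flox 1, 4.74 and 9.76 FPKM in flox 2 and 3, and 34.3, 20.4 and 11.5 FPKM in CKO 1 to 3. Flox 1 was again the highest library, but the CKO libraries held enough of it to leave a ratio of 6.38.

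Among 27 genes of synaptic vesicles and release 12 were members, and 26 had their highest value in flox 1. Snap25, a fusion protein of the synapse, was at 27.7 FPKM in flox 1 and had 0 reads in the other 5 libraries, at least 768-fold higher against a floor of 3 reads per library. Cplx1, which clamps vesicle fusion, was at 47.9 FPKM against at most 0.242 FPKM. Syp and Syn1, proteins of the vesicle surface, were at 26.1 and 14.2 FPKM, and Sncb at 8.17 FPKM with 0 reads elsewhere. A further 18 genes, mostly of synaptic scaffolds and vesicles, were grouped from the members themselves. They ran from Ppfia3 at 2.18 FPKM up to Sult4a1, of the sulfotransferase family, at 42.0 FPKM. They included Slc17a6, the vesicular glutamate transporter VGLUT2, at 4.33 FPKM with 0 reads elsewhere (at least 205-fold higher).

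Dense-core granules carry peptides, and 10 of their 15 genes were members. Pcsk1n, an inhibitor of peptide processing, was at 46.0 FPKM in flox 1 and between 0 and 0.0619 FPKM elsewhere. Scg3 and Vgf, granule proteins, were at 39.7 and 14.2 FPKM, Scg5 at 12.2 FPKM and Resp18 at 8.97 FPKM. Cpe, a peptide-trimming enzyme that heart cells also make, was at 132 FPKM in flox 1 and at 102 and 122 FPKM in flox 2 and 3, so this granule gene was no member. All 15 granule genes had their highest value in flox 1.

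Peptides that sensory neurons release followed. Calca (calcitonin and the pain peptide CGRP; gene ID 12310, chr7:114225223-114236145 on the minus strand) was at 50.0 FPKM in flox 1, listed at 0 in flox 2 and 3, and at 0.0469, 0.0623 and 0.0764 FPKM in CKO 1 to 3. Its near copy Calcb was at 6.21 FPKM with 0 reads in all other libraries, and how reads were split between these paralogues is uncertain. Tac1, the gene of substance P, was at 18.2 FPKM in flox 1, 0.381 and 0.382 FPKM in flox 2 and 3, and 0 in CKO 1 to 3. Outside flox 1, reads of Calca came from the CKO libraries and reads of Tac1 from flox 2 and 3. Cartpt and Gal completed the 5 member peptides of the 17 listed, at 4.04 FPKM (144 reads) and 3.40 FPKM (109 reads). Npy and Vip, peptides of many autonomic neurons, were at 0.0868 and 0.122 FPKM in flox 1 on 2 and 8 reads, and another library reached 0.288 FPKM for Npy and 0.0696 FPKM for Vip. Nmb, a bombesin-like peptide, was at 34.4 FPKM in flox 1 and at 1.83 to 4.43 FPKM elsewhere, under 10 times. Sst and Adcyap1, at 1.88 and 1.26 FPKM, had 0 reads in the other 5 libraries and missed only the floor.

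Transcription factors that set the identity of sensory neurons were among the members. Of 17 sensory neuron factors, listed after the values were seen, 10 were members and 15 had their highest value in flox 1. Pou4f1 (Brn3a), which sets sensory neuron fate, was at 5.32 FPKM in flox 1, 0.0742 and 0.0385 FPKM in flox 2 and 3, and 0.0159, 0.0789 and 0.127 FPKM in CKO 1 to 3. Prdm12, a zinc finger protein that pain neurons need to form (gene ID 381359, chr2:31525038-31545807 on the plus strand), was at 5.14 FPKM on 1316 reads, with 0 reads in the other 5 (at least 341-fold higher). Both were low or at 0 in the other 5 libraries, as the rule requires of every member. The homeobox genes Isl1, Tlx3 and Hoxd1, at 2.92, 2.55 and 2.36 FPKM, also had 0 reads elsewhere. Isl2 was at 9.13 FPKM, Tlx2 at 8.98 FPKM and Prrxl1 (Drgx, a homeobox gene of pain neurons and their targets) at 3.54 FPKM, each with at most 0.0821 FPKM in another library. Scrt1 and Scrt2, repressors of the Snail family in neurons, were at 2.21 and 2.66 FPKM. By the family column of the deposited table the set held 6 homeobox genes, 1 Pou gene, 1 bHLH gene (Bhlha9) and 3 C2H2 zinc finger genes.

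The autonomic factors were on an earlier list. The sensory factor list was drawn up after the values were seen, so the member counts of these lists cannot be compared. Of the 15 autonomic factors 6 were listed at 0 in flox 1, among them Hand1 and Tfap2b, and 6 had their highest value there. Phox2a was at 0.519 FPKM in flox 1, 0.255 and 0.332 FPKM in flox 2 and 3, and 0.506, 0.376 and 0.183 FPKM in CKO 1 to 3, so flox 1 and CKO 1 differed little. Hand2 was at 15.0 FPKM in flox 1 and flox 2 and reached 34.9 FPKM in CKO 1. Gata2 was at 6.86 FPKM in flox 1, within the 5.12 to 7.48 FPKM of the other libraries, and Gata3 at 0.107 FPKM, also within theirs. Hand2 and Gata2 were measurable in every library and made up most of the list's sum, 35.9 FPKM in flox 1. Their levels and that sum therefore say little about autonomic neurons. The 2 members on the autonomic list were Isl1 and Tlx2, which sensory neurons also make.

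Transmitter genes were also described by list. Th, the rate-limiting enzyme of dopamine and noradrenaline synthesis, was the only member of the 9 noradrenergic genes, at 2.19 FPKM in flox 1, 0 in flox 2 and 3, and 0.0457, 0.0323 and 0.132 FPKM in CKO 1 to 3. Dbh, the enzyme that makes noradrenaline from dopamine, was at 1.18 FPKM in flox 1, below the 1.55 and 1.82 FPKM of flox 2 and 3. The noradrenaline transporter Slc6a2 was at 0.0154 FPKM on 4 reads. Chat and Slc18a3, which make and load acetylcholine, had 0 reads in all 6 libraries, and 0 reads allow up to 0.0262 and 0.0305 FPKM in flox 1. The choline transporter Slc5a7 was at 0.0358 FPKM on 8 reads. No cholinergic gene of 5 was a member, and none of 6 nicotinic receptor genes. The ganglionic subunits Chrna3 and Chrnb4 were at 0.102 and 0.204 FPKM on 18 and 34 reads in flox 1, with 0 reads in the other 5. The highest genes of these lists were Ache, which breaks acetylcholine down, at 2.95 FPKM in flox 1 and at most 1.08 FPKM elsewhere, and the receptor subunit Chrnb2 at 1.99 and at most 0.464 FPKM. So both lists summed higher in flox 1 (3.94 against at most 1.33 FPKM, and 3.91 against at most 0.472 FPKM), while the genes that make and load the transmitter were at 0.

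Of 15 sensory neuron genes 12 were members, and all 15 had their highest value in flox 1. Their summed level was 159 FPKM there and 2.27 to 3.08 FPKM in the other libraries. The median log2 ratio of flox 1 to the highest other library, with 0.1 FPKM added to both, was 4.58 for this list and -0.37 over all 9742 protein-coding genes of at least 2 FPKM in flox 1. The list itself was not cut at that floor. Without the floor the median was -0.208 over 22048 protein-coding genes, the names left out of the set excluded. The ratio of flox 1 to the other libraries is what the rule selected on, so the difference is a description and supports nothing. Avil (advillin, an actin-binding protein of sensory neurons) was at 23.7 FPKM against at most 0.470 FPKM. The list's genes short of the thresholds were Runx1 at 2.42 FPKM (up to 1.80 FPKM elsewhere), Pou4f2 at 0.299 FPKM and Mrgpra3 at 1.56 FPKM.

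**Figure D3:**
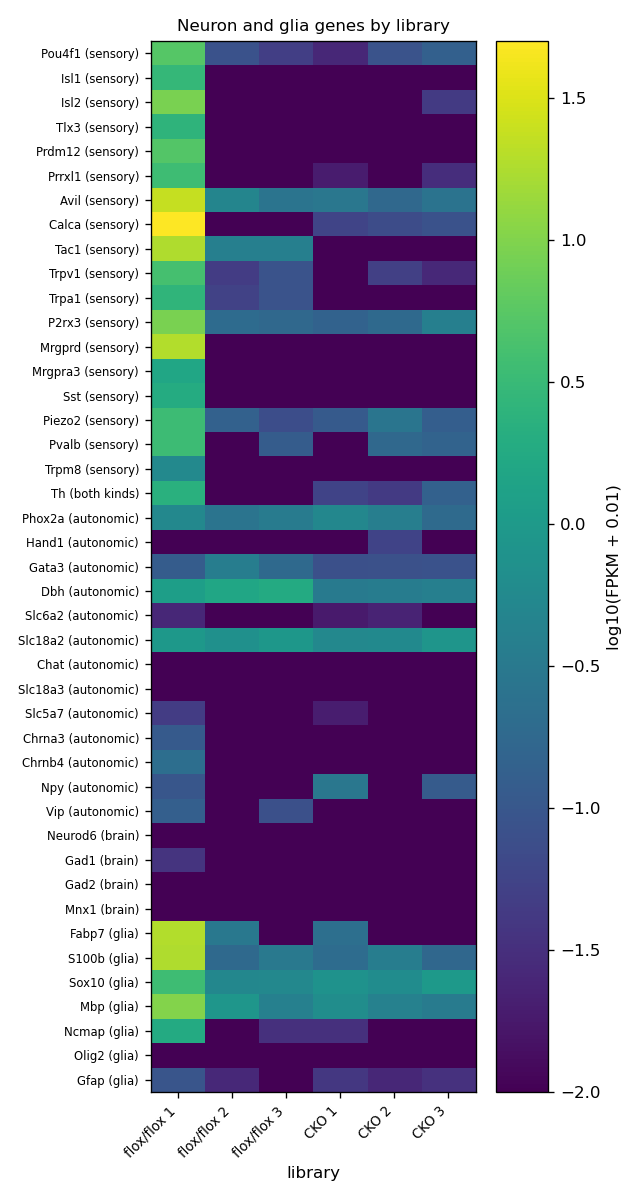
Heat map of log10(FPKM + 0.01) for genes of sensory neurons, autonomic neurons, brain neurons and glia (rows) in the 6 libraries (columns). The rows were picked by hand, and Runx1 of the sensory list is not drawn. The sensory rows shown have their highest value in flox 1. Chat and Slc18a3 are at the bottom of the scale in all 6 libraries, while the autonomic rows Chrna3 and Chrnb4 have reads in flox 1 alone.

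Channels and receptors of the sensory endings were among the members. Trpv1, the channel for heat and capsaicin, was at 4.11 FPKM in flox 1, 0.0352 and 0.0784 FPKM in flox 2 and 3, and 0, 0.0401 and 0.0164 FPKM in CKO 1 to 3. Trpa1, the irritant channel, was at 2.59 FPKM and at most 0.0791 FPKM elsewhere. The ATP receptor P2rx3 was at 8.89 FPKM (at most 0.392 FPKM elsewhere), and Piezo2, the touch channel, at 3.47 FPKM (at most 0.265 FPKM). Of these 4, P2rx3 had the highest level elsewhere. The acid channels Asic3 and Asic2 were at 4.46 and 2.18 FPKM, and Asic3 overlaps a more abundant gene on the other strand, so its value is uncertain. The set also held the glutamate receptor subunit Grik1 at 4.68 FPKM with 0 reads elsewhere, the GABA receptor subunit Gabbr2 at 3.19 FPKM, the glycine receptor subunit Glrb at 2.52 FPKM and Ano3, an anoctamin of pain neurons, at 2.14 FPKM.

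Among voltage-gated channel and tubulin genes, which the rule left out by name, 12 passed the same thresholds. They included Tubb3 at 154 FPKM, the pain neuron sodium channels Scn10a and Scn11a at 14.1 and 10.7 FPKM, and Scn9a at 2.30 FPKM with 0 reads in the other 5 libraries.

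Genes of several sensory neuron subtypes were present, from lists drawn up after the values were seen. Of 9 genes of peptide-rich pain neurons 6 were members, among them Calca, Tac1, Calcb, Trpv1 and Gal. Mrgprd, a receptor of pain neurons that end in the skin (gene ID 211578, chr7:144868572-144877796 on the plus strand), was at 18.8 FPKM on 2385 reads in flox 1, with 0 reads in the other 5 (at least 618-fold higher). Acpp, the phosphatase of the same neurons, was at 8.37 FPKM against at most 0.0820 FPKM. Ret and Gfra2, which form a receptor for neurturin there, were at 19.1 and 6.40 FPKM in flox 1 and reached 2.89 and 0.726 FPKM in flox 3, so both fell short of 10 times.

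The itch receptor genes Mrgpra3 and Mrgprx1 were at 1.56 and 1.73 FPKM in flox 1, under the floor, with 0 reads elsewhere, and reads may be shared among the near-identical Mrgpr genes. F2rl2, on the same list, was a member at 4.75 FPKM. A second itch type was represented by Sst and by Il31ra, the interleukin 31 receptor, at 1.88 and 1.73 FPKM. Tafa4, which accompanies Th in fine touch neurons, was at 1.65 FPKM with at most 0.00835 FPKM elsewhere, and Slc17a8, the third gene of that list, at 0.0365 FPKM. Trpm8, the cold channel, was at 0.548 FPKM on 90 reads and had 0 reads elsewhere.

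Genes of large touch and position neurons were represented by 4 of 9. Pvalb, a calcium buffer of muscle position neurons, was at 3.44 FPKM in flox 1, 0 and 0.108 FPKM in flox 2 and 3, and 0, 0.166 and 0.141 FPKM in CKO 1 to 3. Nefh, Piezo2 and Asic2 were the others, with values given above. The neurotrophin receptors Ntrk2 and Ntrk3 were at 0.613 and 0.534 FPKM in flox 1, both under the floor. Of 7 genes of vagal sensory neurons 0 were members, and 5 had their highest value in flox 1. The highest of that list, Gpr65, was at 2.53 FPKM in flox 1 and reached 4.52 FPKM in flox 2, and Npy2r was at 0.788 FPKM with 0 reads elsewhere.

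Hox genes are numbered from 1 to 13 along their clusters, and higher numbers are in use nearer the tail. Summed over paralogue group 1, the level was 2.48 FPKM in flox 1, mostly from the member Hoxd1, and at most 0.0238 FPKM elsewhere. In groups 2, 3 and 4 the libraries were closer: flox 1 had 0.565, 0.579 and 1.24 FPKM, and the highest other library 0.744, 0.412 and 1.37 FPKM. Flox 1 was highest in group 5 (1.93 against 0.252 FPKM), group 6 (1.18 against 0.110), group 7 (0.951 against 0.0301), group 8 (1.22 against 0.614) and group 9 (0.796 against 0.322). Group 10 had 3 reads in flox 1, group 13 had 2, and groups 11 and 12 had 0.

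**Figure D4:**
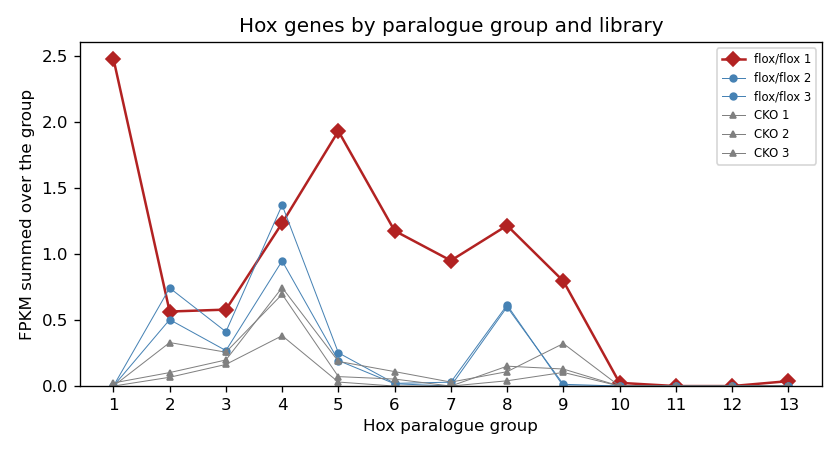
FPKM summed over each Hox paralogue group (horizontal, 1 to 13) in the 6 libraries, with flox 1 as red diamonds, flox 2 and 3 as blue circles and the libraries labelled CKO as grey triangles. Flox 1 is above the rest in groups 1, 3 and 5 to 9, and all libraries are at or near 0 from group 10 on.

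Glial genes formed a smaller share of the set, with 4 of 13 genes of satellite glia and Schwann cells and 2 of 12 of myelinating Schwann cells. Mbp, myelin basic protein, was at 10.4 FPKM in flox 1, 0.865 and 0.399 FPKM in flox 2 and 3, and 0.647, 0.418 and 0.333 FPKM in CKO 1 to 3. It was highest in flox 1 and measurable in every library.

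Fabp7, a fatty acid binding protein of satellite glia, was at 19.1 FPKM in flox 1, 0.290 and 0 FPKM in flox 2 and 3, and 0.214, 0 and 0 FPKM in CKO 1 to 3. S100b was at 18.3 FPKM, the neurotrophin receptor Ngfr at 18.0 FPKM and the adhesion molecule L1cam at 8.44 FPKM. Sox10, which marks all Schwann cells, was higher in flox 1 (3.49 FPKM) than elsewhere (at most 0.965 FPKM) but did not reach 10 times. Entpd2 and Pmp22 were at 11.9 and 50.4 FPKM in flox 1 and reached 11.0 and 35.7 FPKM elsewhere. Summed, the satellite glia and Schwann cell list was not higher in flox 1 (494 FPKM against 466 to 1500 FPKM). Most of that sum was Cryab, a chaperone abundant in heart muscle, at 392 FPKM in flox 1 and 450 to 1484 FPKM elsewhere. Of the 13 genes of this list 12 had their highest value in flox 1, as had 11 of the 12 myelinating Schwann cell genes. The myelinating list summed to 134 FPKM in flox 1 and 22.9 to 43.5 FPKM elsewhere.

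Few markers of the brain and spinal cord were members. Of 15 such neuronal genes 1 was a member, Slc17a6, which sensory ganglia also use, and 7 were listed at 0 in flox 1. Gad2, Neurod6 and Mnx1 had 0 reads in all 6 libraries. Slc17a7, the other glutamate transporter, was at 9.11 FPKM in flox 1 and reached 8.05 FPKM in CKO 2. Of 9 genes of central glia 0 were members, with Olig2 at 0 in all 6 libraries, Aqp4 at 2.60 FPKM in flox 1 and 3.36 FPKM in flox 3, and Cx3cr1 at 9.82 and 19.1 FPKM in flox 1 and flox 2. The enteric list held 0 members of 6, but 5 of the 6 had their highest value in flox 1. Ednrb was at 5.17 FPKM there, and Tbx3 at 4.26 FPKM, under the 5.21 FPKM of flox 3. Hoxb5, at 1.41 FPKM against at most 0.134 FPKM elsewhere, missed only the floor. The adrenal list held 0 members of 6, and 0 of the 6 were highest in flox 1. Mycn and Top2a, of a list of proliferating neuroblasts with 0 members of 8, were at 3.64 and 2.95 FPKM in flox 1 and at 4.25 and 4.79 FPKM in flox 2.

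Tissues that lie next to the heart or the ganglia added few members. Thymus, lung, brown fat, skeletal muscle, cartilage, gullet and smooth muscle lists held 0. Nkx2-1, Rag2 and Krt13 had 0 reads in all 6 libraries, but the lung and airway list summed higher in flox 1, at 1.68 FPKM against 0.0404 to 0.440 FPKM elsewhere. In that list the airway secretory gene Scgb1a1 was at 0.525 FPKM in flox 1 with 0 reads elsewhere, Foxj1 of ciliated cells at 0.516 FPKM (at most 0.0417 FPKM elsewhere) and the surfactant gene Sftpc at 0.367 FPKM (at most 0.0350 FPKM elsewhere). The thyroid list was at 51.4 FPKM in flox 1 against at most 0.451 FPKM elsewhere, and 50.0 FPKM of it was Calca. Tg, thyroglobulin, was at 0.305 FPKM in flox 1 and 0.356 FPKM in flox 2, and Pth and Gcm2 of the parathyroid had 0 reads in all libraries. The atrial list was at 332 FPKM in flox 1 and 226 to 13665 FPKM elsewhere, mostly from Nppa, the natriuretic peptide gene, at 221 FPKM in flox 1. Myl7, the atrial myosin light chain, was at 0.541 FPKM in flox 1 and at most 0.552 FPKM elsewhere, and Bmp10 at 0. How much atrial tissue the samples held was not tested. The 0 reads of Chat and Slc18a3 therefore say little about ganglia that lie on the atria. The 1 atrial list member was Fgf12, at 2.10 FPKM, which neurons also make, and the pacemaker list held Isl1 and Vsnl1, likewise genes of neurons. Whether other tissue was carried into the sample was not tested.

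**Figure D5:**
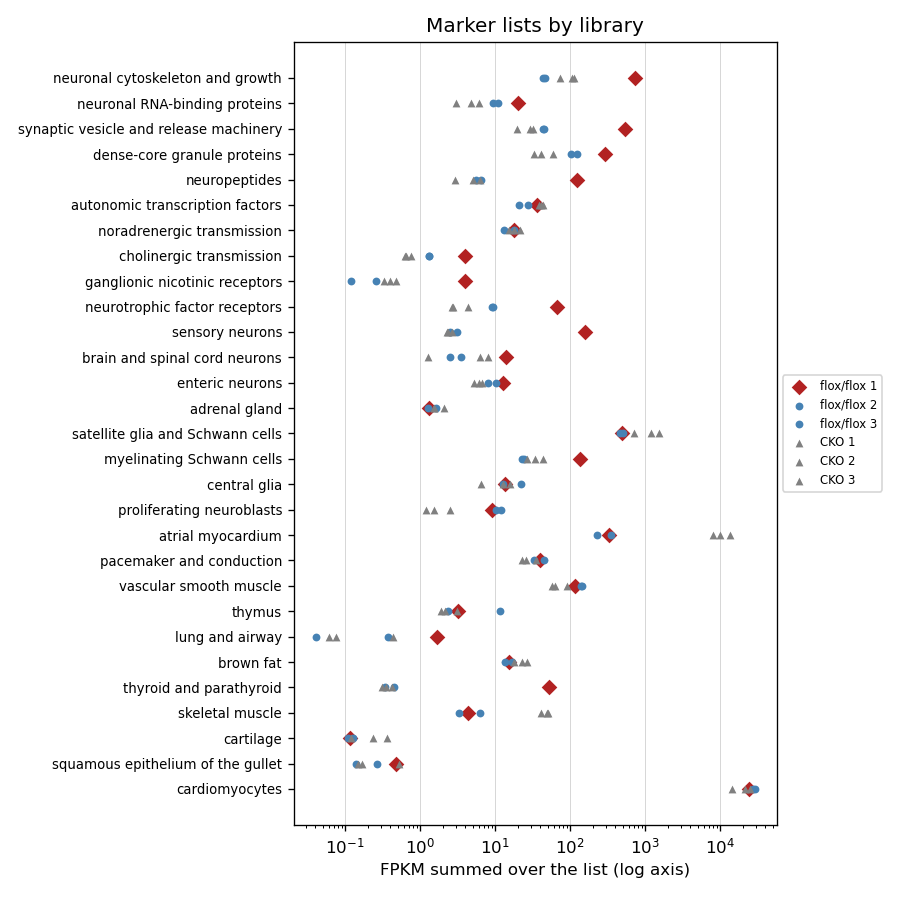
FPKM summed over each of 29 marker lists (rows, log axis) in the 6 libraries, with flox 1 as a red diamond, flox 2 and 3 as blue circles and the libraries labelled CKO as grey triangles. The sensory neuron list is at 159 FPKM in flox 1 and at most 3.08 FPKM elsewhere, while the autonomic factor, noradrenergic and heart muscle lists in flox 1 lie among the other libraries. Most of the autonomic factor sum is Hand2 and Gata2, which were measurable in every library.

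The remaining members with known roles were grouped from the set itself, so their counts carry no weight. Of 10 genes of axonal transport 8 were members, led by Fez1 at 21.0 FPKM, the kinesin Kif1a at 17.1 FPKM and Kif5a at 13.9 FPKM. Kif5a overlaps a more abundant gene on the other strand. Subunits and regulators of the sodium pump included Fxyd2 at 67.4 FPKM (0.296 to 0.671 FPKM elsewhere) and Fxyd7 at 38.2 FPKM.

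Signalling genes gave 14 members, among them Gng3, a G protein subunit of neurons, at 34.0 FPKM, Prkar1b, a kinase A subunit, at 24.0 FPKM and Cdk5r2, an activator of CDK5, at 11.5 FPKM with at most 0.0106 FPKM elsewhere. A loose group of adhesion, guidance and other neuronal genes gave another 14. Cend1, itself not a gene of adhesion or guidance, was highest at 28.9 FPKM, followed by Nrn1 (neuritin) at 24.2 FPKM. Nptx2 at 7.53 FPKM and the potassium channel partner Dpp6 at 5.66 FPKM were also in this group. A mixed group of 8 metabolic and other neuronal genes held Mt3, a metallothionein of nervous tissue, at 36.7 FPKM and Pcp4 at 30.2 FPKM. Of its metabolic enzymes Eno2, neuron-specific enolase, was at 18.2 FPKM. Of 12 neuronal RNA-binding protein genes the Hu proteins Elavl3 and Elavl4 were members, at 3.03 and 2.17 FPKM, and Rbfox1 at 7.59 FPKM in flox 1 was also present in flox 2 and 3 at 5.69 and 4.81 FPKM.

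In all, 133 members stood on at least 1 list and 69 on none. Examples of the 69, chosen after their values were seen, are Tmem233, a transmembrane protein gene at 29.4 FPKM with 0 reads elsewhere (at least 776-fold higher), Bex2 at 24.2 FPKM, and the insulin-responsive trafficking gene Trarg1 at 32.6 FPKM. Trarg1 was present elsewhere at 0.654 to 2.03 FPKM. Also unlisted were Cdh1 (E-cadherin) at 4.57 FPKM, Tyrp1, an enzyme of pigment cells, at 2.54 FPKM with at most 0.0989 FPKM elsewhere, and Car1, a carbonic anhydrase, at 2.34 FPKM with 0 reads elsewhere.

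The 69 unlisted members ran from 2.07 FPKM (Bmerb1 and Tmeff2) to the 32.6 FPKM of Trarg1. Several have known places in neurons. Jph4 and Jph3, junctophilins that tie the cell surface to internal calcium stores in neurons, were at 5.44 and 5.29 FPKM, with at most 0.347 and 0.0809 FPKM elsewhere. Actl6b, a subunit of the chromatin remodelling complex that neurons switch on when they stop dividing, was at 2.90 FPKM with 0 reads in the other 5 libraries. Nap1l2 and Nap1l5, nucleosome assembly proteins of neurons, were at 3.27 and 10.6 FPKM, and Nap1l5 reached 0.386 FPKM in flox 3. Faim2, an inhibitor of neuronal death, was at 2.65 FPKM and had reads in only 1 other library, CKO 2. Add2, the beta adducin of the membrane skeleton, was at 3.87 FPKM and at most 0.0231 FPKM elsewhere. Alkal2, a ligand of the receptor ALK, was at 4.26 FPKM, and its value is uncertain, since a more abundant gene overlaps it on the other strand.

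Other unlisted members are not genes of neurons alone. Fkbp1b, which binds the ryanodine receptor, was at 11.9 FPKM and at 0.283 to 1.04 FPKM elsewhere. Susd2 was at 15.6 FPKM and at 0.674 to 1.23 FPKM elsewhere, and Sfrp5, a secreted inhibitor of Wnt signalling, at 6.97 FPKM and at most 0.622 FPKM. These 3 were measurable in all 6 libraries, unlike Prdm12, Snap25 or Mrgprd.

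The members were spread over the genome, with the largest number on chromosome 2 (20, or 9.90% of members against 7.87% of protein-coding genes at the floor). Their median gene length was 3392.5 bases, against 3501 for those genes, and their median span on the chromosome 26437 bases, against 22417. A gene on the other strand overlapped 72 members and a gene on the same strand 25. For 6 members (Kif5a, Asic3, Alkal2, Caskin1, Sgpp2 and Maneal) the gene on the other strand had the higher FPKM in flox 1. The libraries were directional, but whether counting took the strand into account is not given in these sources, which leaves these values uncertain.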

How the data were processed

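RNA was selected on poly-T beads from total RNA of whole hearts and sequenced in directional libraries (dUTP in the second strand) as read pairs of 150 bp, per the labels' protocols. The design text of the series names HISAT2 2.2.1 for alignment to GRCm39 and featureCounts 2.0.6 for counting, and CASAVA and DESeq2 1.42.0 are also named in the submitters' processing notes. The authors deposited FPKM per gene, with gene lengths and coordinates. Multiplied by gene length, 100% of the deposited FPKM values were whole multiples of 1 read (within 0.01 read), so reads per gene were recovered. Strand use in counting and the definition of gene length are not given in the sources used here.

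The rule for members was applied to the deposited FPKM in Python 3.11.15 with pandas 2.3.3 and numpy 2.4.6. It was also run on simulated reads, with genes planted among those measurable in the other libraries. Many members are at or near 0 there, so nothing about the members is read from that run. Counting intervals (95%, Poisson for a level and exact for a ratio of reads, SciPy 1.17.1) cover counting error only, and a count of 0 was taken to allow 3 reads. Figures used matplotlib 3.10.9. No test was run, between the groups or otherwise, since the values chose the members. Levels set side by side by group, such as those of Nat10, are a description. The members, the 29 first lists and the 16 added lists were chosen with earlier results of these data known. The named genes were the 10 highest members, up to 5 members per list, the genes nearest each threshold, and the listed peptide, transmitter, receptor and autonomic factor genes. Others were chosen after their values were seen. Some genes that the rule names are not reported here. Alternatives covered the floor, the ratio, a pseudocount, the scaling, the biotype, the names left out and each other library left out.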

Additional observations from a re-analysis of the deposited data

How the results depend on the processing

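Every value depends on flox 1, without which the set is not defined. The 202 members became 109 at a floor of 5 FPKM, 601 at a floor of 10 reads and 44 with 1 FPKM added to both sides of the ratio. Leaving out members that overlap a gene on the other strand, an alternative added after the data were seen, left 130. With 1 FPKM added, members on neuronal lists numbered 17 in place of 36 and sensory neuron members 4 in place of 12. At a floor of 10 reads glial members numbered 10 in place of 6. Th, the only noradrenergic member of 1, was lost (0) at a floor of 5 FPKM, at 20 times, and with 0.1 or 1 FPKM added. Glial members numbered 4 at 20 times and 4 with 1 FPKM added. The total moved less than 1.5 times in the rest: members numbered 287 at a floor of 1 FPKM, 269 at 5 times, 158 at 20 times, 183 with 0.1 FPKM added, 213 scaled by total reads, 211 with all biotypes, 214 with the Kcn, Scn and Tub genes kept, and 265 against the median of the other libraries (also added later). Leaving out each other library gave 204 to 208 members, with 36 to 38 on neuronal lists and 12 sensory, 6 glial, 1 noradrenergic and 0 cholinergic members.

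For the ratio of a list's summed FPKM in flox 1 to the highest other library, 4 of 174 alternatives crossed 1: noradrenergic without CKO 1 (1.002, otherwise 0.836 with any library left out), pacemaker without flox 3 (1.14, otherwise 0.889), thymus without flox 2 (1.02, otherwise 0.274) and gullet without CKO 1 (1.77, otherwise 0.913). Of the rest 140 stayed within the counting interval and 30 left it without crossing. No paired analysis was possible because the results come from no test. The members' levels rest on 109 reads or more, and 0 reads do not show that a gene was absent.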

Other observations

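Outside the protein-coding genes 9 rows passed the same thresholds. Rps2-ps10, a ribosomal protein pseudogene, was at 32.7 FPKM in flox 1 and at 1.33 to 2.43 FPKM in the other 5 libraries, and reads may be shared with its parent gene. Gm7271, a transcribed pseudogene, was at 7.94 FPKM, and Mrgprx3-ps, a pseudogene of the Mrgpr receptors, at 6.33 FPKM, both with 0 in the other 5 libraries. The long noncoding RNA Snhg11 was at 6.19 FPKM in flox 1, and 4 of the other 5 libraries were at 0. Gm33714 was at 4.15 FPKM with 0 elsewhere, D930028M14Rik at 2.93 FPKM, Gm30826 at 2.78 FPKM and Miat at 2.11 FPKM. The remaining row, a transcript without a name, was at 3.35 FPKM.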
